A study of Drosophila melanogaster with 16 samples.

Results

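The antimicrobial peptide genes of *Drosophila melanogaster* were examined in wandering larvae of the last instar that were homozygous for dfr14 or carried the control genotype w1118. The set was 10 genes taken by symbol, chosen with earlier results of these data known (*AttA*, *AttB*, *AttC*, *AttD*, *DptA*, *DptB*, *Dro*, *Mtk*, *Drs* and *edin*). All 10 were among the 12509 genes of the body table, and 5 of the 10 (*AttA*, *DptA*, *DptB*, *Mtk* and *Drs*) were among the 9731 genes of the other table, that of the brain with the attached ring gland (BRGC). The other 5 were not in that table and so were not analysed here in the BRGC. The methods state that genes without counts were removed. As 9496 of the 9731 genes had a mean of at least 10 reads in control BRGCs, the cut may have been higher. Absence from the table therefore does not show that these 5 genes had no reads. There were 4 groups of 4 libraries each, the dfr14 body, the control body, the dfr14 BRGC and the control BRGC, from larvae kept at 25 °C and without any stated infection. The dfr14 allele is a CRISPR/Cas9 deletion just behind the first stop codon of *dfr*, a gene listed as *vvl* in the tables. It removes Dfr-L, the longer isoform made when translation runs past that stop codon, and leaves the shorter isoform. Body samples were larvae from which BRGCs, mouth hooks and salivary glands had been taken, and the BRGCs came from other larvae. The dfr14 line had been crossed to a balancer stock, and its repeated crossing to w1118 came only afterwards, so the lines may differ at other loci. Groups were taken from the sample titles, because the genotype tag of the sample records runs with the tissue and contradicts both the titles and the methods. The headers of the value columns name no genotype, and each column was placed by the tables' own columns of wild-type and dfr means, which equal the means of these columns after a constant shift. They also carry no replicate number, so libraries are numbered here by their place in the table.

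Antimicrobial peptides are short secreted peptides that flies release into the hemolymph, mostly from the fat body, and make locally in epithelia such as gut and trachea. In the Imd pathway, peptidoglycan recognition proteins detect bacterial cell wall fragments and the NF-kappaB factor Relish switches on Diptericin, Attacin and Drosocin genes. The Toll pathway acts through the factors Dif and Dorsal and is the main route to Drosomycin after fungal or Gram-positive infection. Dfr is a POU domain transcription factor, and work in *Drosophila* has described it as an activator of antimicrobial peptide genes in epithelia without infection.

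Libraries held 17.1 to 30.1 times 1e6 counted reads. Levels are given as reads and as CPM, that is, reads per 1e6 reads of the library size after TMM scaling, and the tables of the tissues were scaled separately. *vvl* RNA, which the allele leaves in place, was present in every dfr14 library, and its level therefore does not check the genotype. It measured 90.5 to 115.6 CPM in dfr14 BRGCs, against 63.1 to 68.4 CPM in control BRGCs (adjusted p = 0.00077, limma), and 67.7 to 83.3 CPM in dfr14 bodies, against 47.8 to 59.4 CPM in control bodies (adjusted p = 0.0663). All 4 neuron and all 4 prothoracic gland markers were detected in the BRGC and in the body, so detection alone does not tell the tissues apart. Neuron markers summed to 819.4 to 1468 CPM in BRGCs and 149.1 to 242.6 CPM in bodies. Prothoracic gland markers summed to 101.5 to 265.5 CPM in BRGCs and 5.6 to 21.9 CPM in bodies. Control body library 4 stood apart in having no read for 1685 genes, against 32 to 97 genes in the other control body libraries and 90 to 189 in the dfr14 body libraries. The methods call the libraries biological replicates, and no library repeated another.

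Positions are those of the BDGP6 assembly, and every gene of the set lies on the plus strand. On chromosome arm 2R, *Dro* (14745961 to 14746714), *AttA* (14747362 to 14748215) and *AttB* (14749223 to 14750165) stand in a row, with 647 bases between *Dro* and *AttA* and 1007 between *AttA* and *AttB*. *AttC* (13393705 to 13394667), *Mtk* (15408846 to 15409113), *DptA* (18865765 to 18866260) and *DptB* (18867391 to 18867895) are on the same arm, the Diptericin genes 1130 bases apart. *AttD* is on 3R (17625268 to 17626086), *Drs* on 3L (3369556 to 3369942) and *edin* on 3L (17494880 to 17495300). *AttA* and *AttB* are near-identical copies, so the split of reads between them is uncertain. By whole gene span, *Mtk* overlaps *CG43729* and *edin* overlaps *Oatp74D* on the same strand, and *AttC* and *DptB* overlap *CG4744* and *CG43109* on the other strand. Whether exons overlap was not examined. The libraries were made with a stranded kit, but whether reads were counted by strand is not given in the sources used here. How far reads of these pairs were mixed is therefore not known.

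In the body, all 10 genes had a lower mean in dfr14 than in control libraries, but the control libraries differed so much among themselves that none of the 10 passed the test. Control libraries 3 and 4 had high levels of the whole set, while for 8 of the 10 genes the range of the control libraries overlapped that of the dfr14 libraries. Only *AttA*, an Attacin active against Gram-negative bacteria, and *edin*, a gene named for its rise during infection, were lower in each of the dfr14 libraries than in every control library. For *AttA* this depends on the uncertain split of reads with *AttB*, because the reads of the pair together overlapped between the genotypes.

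**Figure D1:**
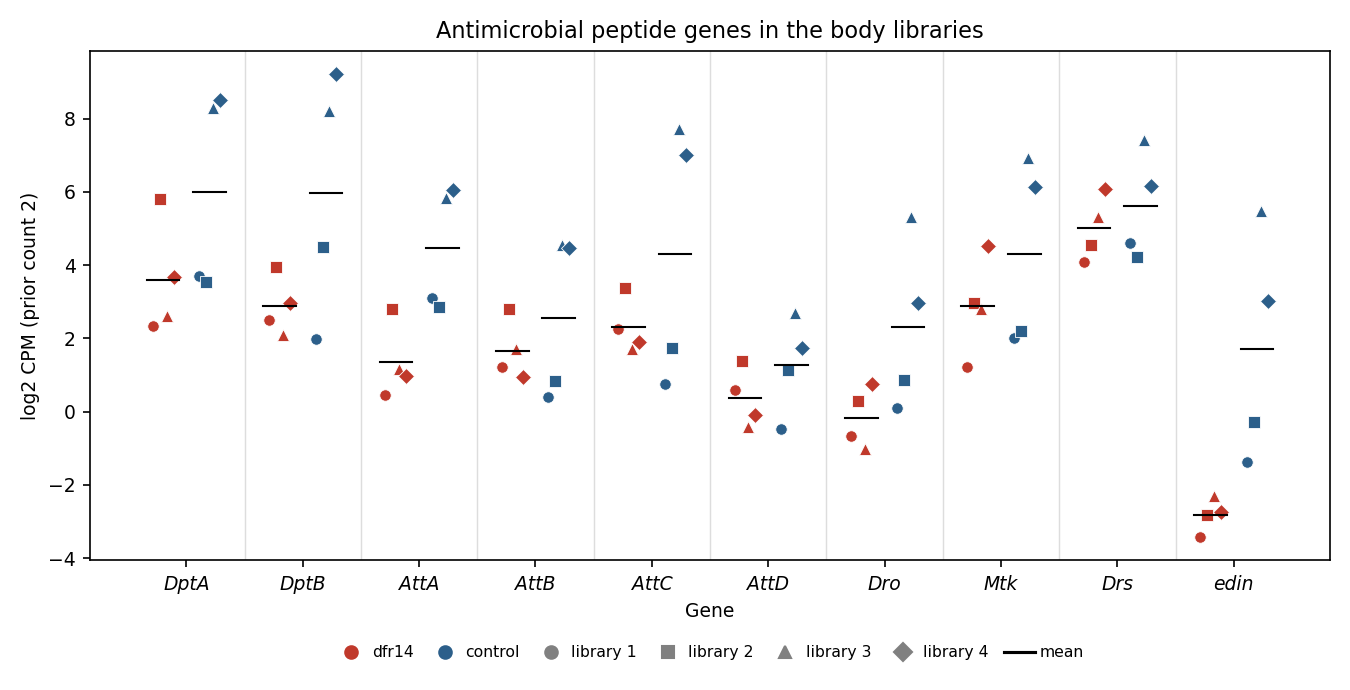
Level of each gene (log2 CPM with a prior count of 2, vertical axis) in each body library, with dfr14 libraries in red to the left and control libraries in blue to the right, a marker shape for each library and a black line for the group mean. Control libraries 3 and 4 are the highest of the control libraries for 10 of 10 genes, and only *AttA* and *edin* show no overlap between the genotypes.

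Diptericins, which act on Gram-negative bacteria, had the highest median of the set per exon length in control bodies, a median that rests on libraries 3 and 4. *DptA* had 73, 1148, 166 and 222 reads in dfr14 body libraries 1 to 4, against 265, 299, 7108 and 7965 reads in control body libraries 1 to 4. Its neighbour *DptB* had 82, 317, 114 and 136 reads in dfr14 bodies, against 79, 587, 6765 and 13062 reads in control bodies. In CPM, all 4 dfr14 libraries lay between control libraries 1 and 2 for *DptB*, and for *DptA* dfr14 library 2 lay between control libraries 1 and 2 below it and libraries 3 and 4 above it. Mean levels of *DptA* were 19.9 ± 24.3 CPM in dfr14 and 175.8 ± 190.0 CPM in control bodies, and those of *DptB* were 8.22 ± 5.03 CPM in dfr14 and 230.9 ± 279.7 CPM in control bodies (SD, n = 4 each). The log2 fold changes were -2.40 (SE 1.42, adjusted p = 0.562) for *DptA* and -3.10 (SE 1.54, adjusted p = 0.451) for *DptB* (limma, with p-values adjusted by Benjamini-Hochberg over the whole body table).

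The Attacins, too, were highest in control body libraries 3 and 4, and only *AttA* among them separated the genotypes. *AttA* had 19, 141, 59 and 33 reads in dfr14 libraries, against 175, 187, 1298 and 1437 reads in control libraries. The highest dfr14 library (6.87 CPM) lay just under the lowest control library (7.20 CPM), and the log2 fold change was -3.11 (SE 0.90, adjusted p = 0.186). *AttB*, its neighbouring copy, had 33, 141, 87 and 32 reads in dfr14 libraries, against 25, 44, 528 and 481 reads in control libraries. Every dfr14 library thus had more *AttB* reads than control library 1, and the genotypes overlapped (log2 fold change -0.90, SE 1.09, adjusted p = 0.897). *AttC*, which had the largest SD of log2 CPM of the set in control bodies, had 69, 213, 87 and 64 reads in dfr14 libraries, against 33, 84, 4797 and 2832 reads in control libraries. Its log2 fold change of -1.999 had an SE of 1.63 (adjusted p = 0.736). *AttD*, whose product lacks a signal peptide, was the lowest of the Attacins per exon length, with 21, 52, 18 and 15 reads in dfr14 libraries, against 13, 55, 144 and 71 reads in control libraries. It too overlapped between the genotypes (log2 fold change -0.90, SE 0.73, adjusted p = 0.731).

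For the remaining peptides control library 3 was the highest control library. *Dro*, encoding the proline-rich Drosocin, had 8, 23, 11 and 28 reads in dfr14 libraries, against 20, 45, 907 and 169 reads in control libraries (log2 fold change -2.47, SE 1.13, adjusted p = 0.405). *Mtk*, encoding Metchnikowin, which acts on fungi and bacteria, had 33, 158, 190 and 405 reads in dfr14 libraries, against 81, 117, 2742 and 1526 reads in control libraries (log2 fold change -1.43, SE 1.302, adjusted p = 0.786). For *Mtk*, dfr14 libraries 2, 3 and 4 exceeded control libraries 1 and 2. *Drs*, which encodes the antifungal Drosomycin and is the classical Toll target, had 251, 484, 1098 and 1190 reads in dfr14 libraries, against 500, 481, 3898 and 1570 reads in control libraries. The difference for *Drs* was the smallest of the set (log2 fold change -0.59, SE 0.77, adjusted p = 0.918), and its sign turned (0.018) without control library 3.

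*edin* was close to undetected in dfr14 bodies. It had 0, 1, 3 and 1 reads in dfr14 libraries, against 6, 19, 1013 and 176 reads in control libraries. That is 5 reads in all in dfr14 and 1214 in control bodies, and the 0 of dfr14 library 1 still allows up to 3 reads, or 0.203 CPM. The log2 fold change was -4.53 (SE 1.44, adjusted p = 0.226), a scale that understates the change of a gene with so few reads. Even in control libraries 1 and 2 the level was 0.291 and 0.731 CPM, above the 0.109 CPM of the highest dfr14 library.

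Across the body table, 41 of 12509 genes were called lower in dfr14 (0.328%) and 136 were called higher (1.09%) at an adjusted p under 0.05, and none of the 10 peptide genes was among them. The authors used another test, the exact test of edgeR. From its calls they reported immunity and odor sensing as processes enriched among genes lower in dfr14 bodies. Their calls for the 10 genes were not compared here. At an unadjusted p under 0.05, *AttA* and *edin* passed, against 3.56% of all genes in that direction. Genotypes that did not overlap with dfr14 lower were seen for 2 of the 10 genes and for 2.53% of the table. The median log2 fold change was -2.20 over the 10 genes and 0.12 over all genes. With voom weights in place of the intensity trend, none of the 10 passed either threshold. In these bulk samples, fewer cells of a type and less RNA per cell cannot be told apart.

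How far the difference rests on control libraries 3 and 4 was measured by leaving out each pair of control body libraries, a step added after the values were seen. Without libraries 3 and 4, the fold change was negative for 5 of 10 genes and the median over the set was 0.01, whereas for each of the other 5 pairs left out it was negative for 10 of 10. *AttA* (log2 fold change -1.63) and *edin* (-1.99) kept the most negative values without libraries 3 and 4, while *AttC* (1.06) and *AttB* (1.05) became higher in dfr14, and 0 of 10 genes passed.

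**Figure D2:**
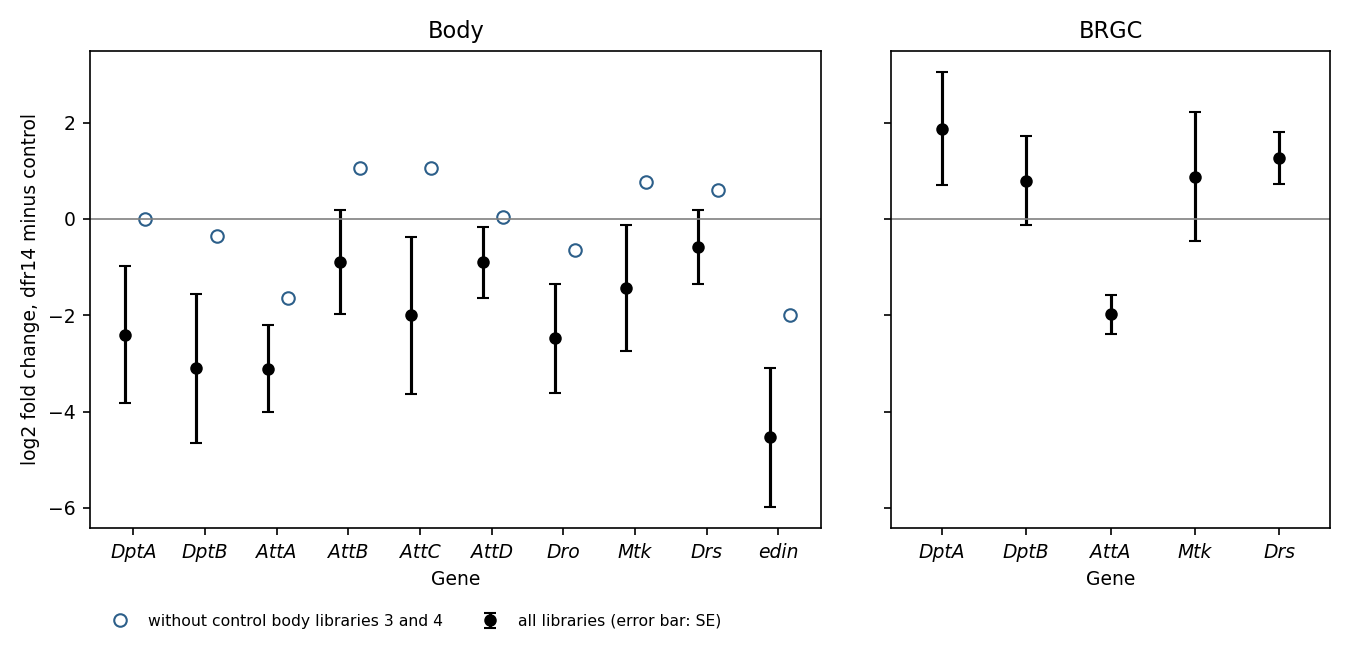
Log2 fold change, dfr14 minus control (vertical axis), of each gene in the body (left) and of the 5 genes measured in the BRGC (right), with all libraries (black, bars show the SE from limma) and, for the body, without control libraries 3 and 4 (open circles). With all libraries 10 of 10 body values are negative, and 5 of 10 are negative without control libraries 3 and 4.

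The spread among control body libraries was wide for every gene of the set. The SD of log2 CPM had a median of 0.82 (range 0.46 to 1.58) over the 10 genes in dfr14 bodies and of 2.46 (range 1.32 to 3.57) in control bodies. Over all genes of the table the median SD was 0.39 in dfr14 and 0.39 in control bodies, so the typical gene had the same spread in either genotype. A spread at or above the set's median was found for 25.0% of all genes in dfr14 bodies and 13.8% in control bodies. As a ratio of the highest to the lowest CPM in a group, control bodies reached 156.0-fold for *DptB*, 153.4-fold for *edin* and 132.1-fold for *AttC*, and were least spread for *AttA* at 9.15-fold. In dfr14 bodies this ratio ran from 3.27-fold for *AttC* to 11.3-fold for *DptA* over the 9 genes with reads in every library.

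**Figure D3:**
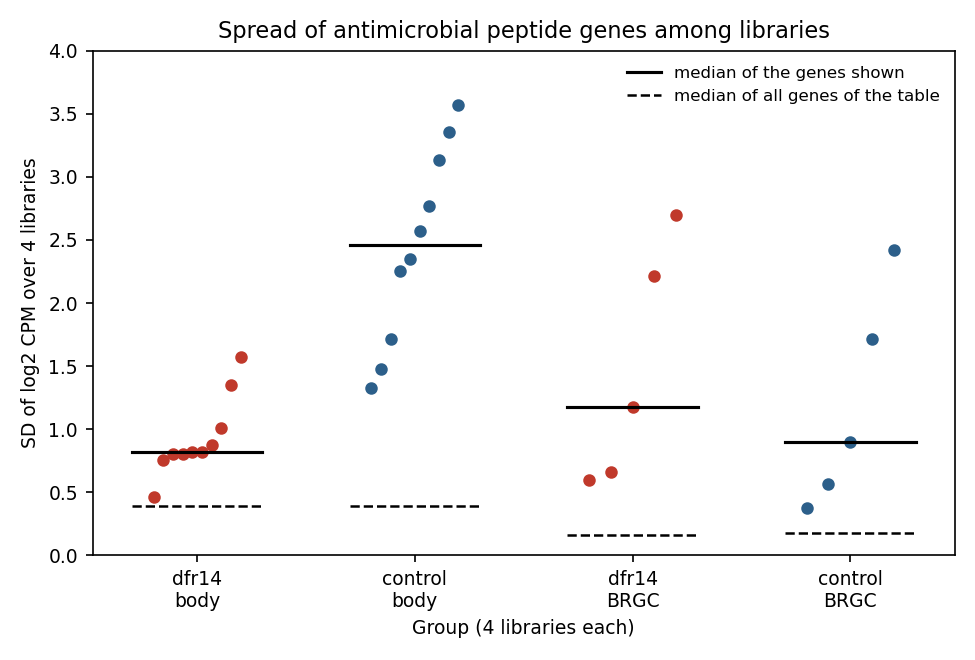
SD of log2 CPM over the 4 libraries of a group (vertical axis), 1 point for each gene, with the median of these genes (solid line) and of all genes of the table (dashed line). Control bodies have the highest median, 2.46, against 0.82 in dfr14 bodies, while the medians over all genes are 0.39 in both.

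Library by library, the set moved as a block in control bodies. Libraries 3 and 4 were the highest pair for 10 of 10 genes, which held for 35.5% of the 12293 genes with a mean of at least 10 reads. Library 3 was the highest for 7 genes (*AttB*, *AttC*, *AttD*, *Dro*, *Mtk*, *Drs* and *edin*) and library 4 for 3 (*AttA*, *DptA* and *DptB*), and library 1 was the lowest for 7. Summed over the 10 genes, dfr14 libraries 1 to 4 had 39.9, 130.4, 66.7 and 121.0 CPM, against 58.1, 73.8, 1289 and 1342 CPM in control libraries 1 to 4. Every dfr14 sum thus lay under those of control libraries 3 and 4, and the sums of dfr14 libraries 2 and 4 lay above those of control libraries 1 and 2. Among dfr14 bodies, library 2 was the highest for 6 of the 10 genes.

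Some other measures moved with the same libraries, and others did not. The summed level of 6 salivary gland markers, which include the glue genes *Sgs3*, *Sgs4*, *Sgs5*, *Sgs7* and *Sgs8*, was 0.740 to 1.70 CPM in dfr14 bodies, against 3.79, 8.74, 10170 and 1295 CPM in control libraries 1 to 4, although the salivary glands were stated to have been removed. All 6 had control libraries 3 and 4 as the highest pair, none was called between the genotypes, and none was at 0 in every library of a group. Fat body markers (0 of 7 called) summed to 79160 to 150600 CPM in dfr14 and 52250 to 91360 CPM in control bodies, with the highest control sums in libraries 3 and 4. Hemocyte markers (0 of 9 called) summed to 1167 to 3692 CPM in dfr14 bodies, the highest in library 2, and to 522.5 to 940.4 CPM in control bodies. TMM factors were 0.798 to 1.03 in dfr14 libraries and 1.16, 1.22, 0.985 and 0.998 in control libraries 1 to 4. Muscle markers (0 of 4 called) summed to 327.1 to 7162 CPM in dfr14 bodies, against 717, 1275, 3993 and 1831 CPM in control libraries 1 to 4, and 4 of 4 had control libraries 3 and 4 as the highest pair. Markers of testis and male transcripts (0 of 4 called) ran the other way, with sums of 15.5 to 119.7 CPM in dfr14 bodies, against 118.4, 208.3, 61.3 and 0.687 CPM in control libraries 1 to 4, and 4 of 4 had control libraries 1 and 2 as the highest pair. Control library 4, the library without a read for 1685 genes, had 0 CPM of *kl-3*, *kl-5* and *Mst84Db*. How many of the 1685 genes are male transcripts was not tested. Gut markers (0 of 7 called) summed to 3478 to 19320 CPM in dfr14 bodies, against 5206, 7365, 12830 and 6195 CPM in control libraries 1 to 4. Control libraries 3 and 4 were the highest pair for 2 of 7 gut, 2 of 4 tracheal, 1 of 4 neuron and 0 of 3 glia markers. The part of these measures in the levels of the peptide genes was not tested.

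The 6 genes outside the set whose levels followed it most closely over the 8 body libraries, after removal of the genotype means, were *CR44404* (Pearson r = 0.98), *CG5285* (0.98), *CG6937* (0.98), *CecC* (0.97), *Sgs1* (0.97) and *agt* (0.96). *CecC* encodes a Cecropin and *Sgs1* a glue protein of the salivary gland. These values describe 8 points from libraries that share their depth and scaling, and they rest on control libraries 3 and 4. Within the set, r ran from 0.42 to 0.98 over the 45 pairs of genes, with a median of 0.85. A high r does not mean a change of like size. *Sgs1* had 0, 6, 0 and 0 reads in dfr14 libraries, against 0, 1, 3411 and 190 reads in control libraries. By contrast, control libraries 1 to 4 had 15.3, 16.4, 21.4 and 21.3 CPM of *CG6937* and 0.972, 1.04, 1.77 and 1.56 CPM of *CG5285*.

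Levels of different genes were compared as CPM per kb of exon length. In dfr14 bodies the order of medians was *Drs* (82.1), *Mtk* (27.3), *DptA* (18.8), *DptB* (14.8), *AttC* (4.62), *AttB* (3.07), *AttA* (2.55), *AttD* (1.53), *Dro* (1.102) and *edin* (0.125). In control bodies it was *DptB* (357.6), *DptA* (329.2), *Mtk* (138.9), *Drs* (124.3), *AttC* (73.9), *AttA* (41.6), *AttB* (13.5), *edin* (10.4), *Dro* (6.28) and *AttD* (3.62). The order of medians in control bodies rests on libraries 3 and 4. In control library 1, *Drs* (62.8) was above *DptA* (26.0) and *DptB* (8.55), as it was in dfr14 libraries 1, 3 and 4, whereas in dfr14 library 2 *DptA* (112.7) was above *Drs* (60.9). The order of *Drs* and the Diptericins therefore does not separate the genotypes. Neighbours in either order overlapped in their ranges over libraries, except that *edin* lay under *Dro* without overlap in dfr14 bodies.

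The copies *AttA* and *AttB* were read in different proportions in the genotypes, a comparison chosen after the values were seen and given without a test. *AttA* took 36.5, 50, 40.4 and 50.8% of the reads of the pair in dfr14 body libraries 1 to 4, against 87.5, 81.0, 71.1 and 74.9% in control body libraries 1 to 4. The highest upper limit in dfr14 bodies was 63.4% and the lowest lower limit in control bodies 68.9% (exact 95% binomial intervals, which cover counting error only), so the intervals of the genotypes did not overlap. In control bodies the share was lower in libraries 3 and 4, where both genes were abundant. For the Diptericin pair the share of *DptA* overlapped, at 47.1, 78.4, 59.3 and 62.0% in dfr14 bodies and 77.0, 33.7, 51.2 and 37.9% in control bodies. The share depends on how reads were assigned between the near-identical copies.

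**Figure D4:**
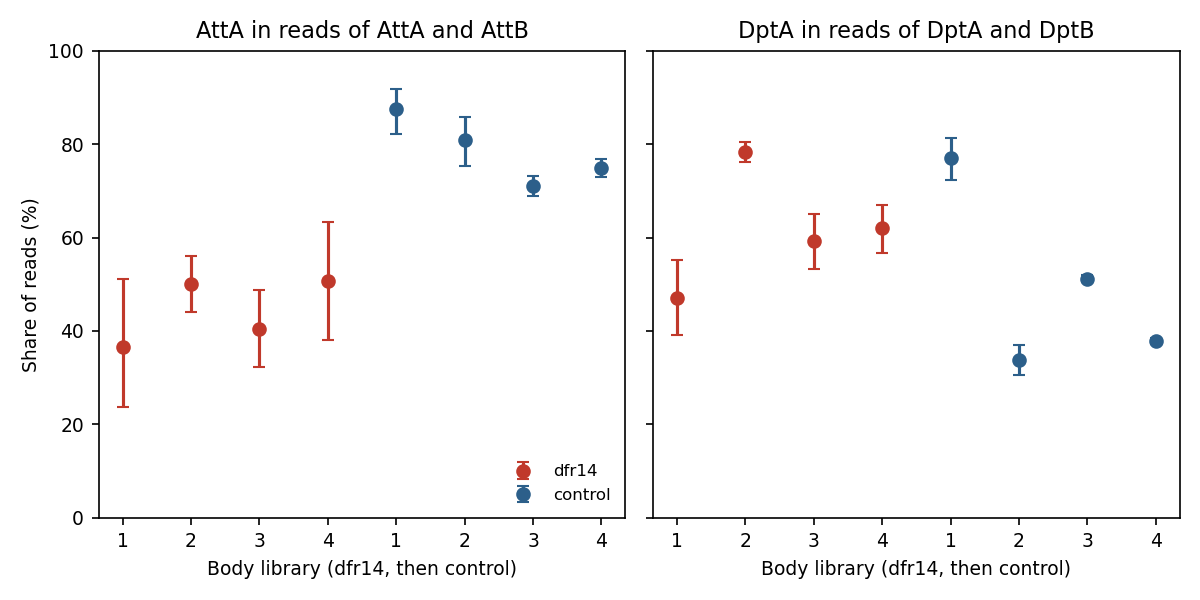
Share of *AttA* in the reads of *AttA* and *AttB* (left) and of *DptA* in the reads of *DptA* and *DptB* (right) in each body library, in percent, with exact 95% binomial intervals, dfr14 in red and control in blue. The share of *AttA* is at most 50.8% in dfr14 and at least 71.1% in control libraries, while the shares of *DptA* overlap.

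In the BRGC the 5 measured genes had few reads, and *AttA* alone passed the test. *AttA* had 8, 4, 8 and 2 reads in dfr14 BRGCs, against 33, 30, 33 and 20 reads in control BRGCs. The genotypes did not overlap, with means of 0.245 ± 0.121 CPM in dfr14 and 1.17 ± 0.317 CPM in control BRGCs (SD, n = 4 each). The log2 fold change was -1.98 (SE 0.41, adjusted p = 0.0106, limma), and it stayed between -2.16 and -1.71 when any library was left out (adjusted p at most 0.0288). For comparison, 5.9% of the 9731 genes of this table were called lower, and 9.79% had dfr14 lower without overlap. The call rests on 22 reads in all in dfr14 and 116 in control BRGCs. *AttB* was not in the BRGC table, so the share of the pair is not known there.

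The other 4 genes did not pass the test, and their reads varied among the BRGC libraries of a group. *DptA* had 81, 0, 40 and 1 reads in dfr14 BRGCs, against 0, 3, 1 and 2 reads in control BRGCs, so dfr14 libraries 1 and 3 lay above all control libraries and dfr14 libraries 2 and 4 among them (log2 fold change 1.87, SE 1.17, adjusted p = 0.309). With 122 reads in all in dfr14 and 6 in control BRGCs, *DptA* may have stayed in the table through dfr14 alone. *DptB* had 18, 5, 11 and 1 reads in dfr14 BRGCs, against 0, 27, 2 and 1 reads in control BRGCs (log2 fold change 0.80, SE 0.92, adjusted p = 0.592). The highest *DptB* library, control library 2, also had the highest sum of the 7 fat body markers, 8188 CPM, whereas the sums were 413.8 to 640.6 CPM in dfr14 BRGCs and 328.3 to 1240 CPM in the other control BRGCs. *Lsp1beta* (3445 CPM) and *Lsp1gamma* (3276 CPM), genes of larval serum proteins, carried most of that sum, while the fat body marker *Fbp1* was at its lowest in the same library (5.77 CPM, against 12.6 to 264.6 CPM in the other control BRGCs). *Mtk* had 10, 2, 122 and 2 reads in dfr14 BRGCs, against 106, 3, 0 and 1 reads in control BRGCs, so a single library of each genotype held most of its reads (log2 fold change 0.88, SE 1.35, adjusted p = 0.694). *Drs* had 15, 7, 26 and 25 reads in dfr14 BRGCs, against 5, 3, 16 and 6 reads in control BRGCs (log2 fold change 1.27, SE 0.54, adjusted p = 0.145). For *Drs* the genotypes overlapped through control library 3, and without that library *Drs* passed the test (log2 fold change 1.70, adjusted p = 0.0456, with adjusted p from 0.0276 to 0.306 over all settings tried).

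**Figure D5:**
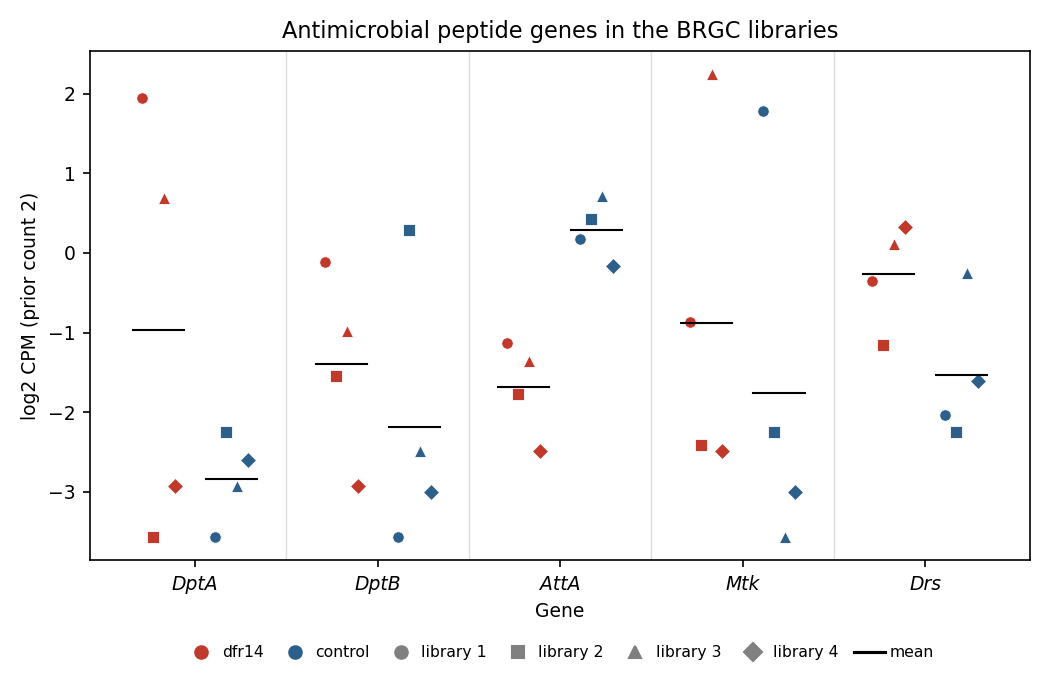
Level of the 5 measured genes (log2 CPM with a prior count of 2, vertical axis) in each BRGC library, dfr14 in red to the left and control in blue to the right, with a marker shape for each library and a black line for the group mean. *AttA* lies lower in all 4 dfr14 libraries, with 2 to 8 reads, against 20 to 33 reads in control BRGCs.

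Some markers of other cells were called between the genotypes in the BRGC as well. None of the 4 neuron, 3 glia, 6 gut and 4 muscle markers measured was called. Of 9 hemocyte markers 3 were called higher in dfr14 (*NimC1*, *He* and *crq*), in a table with 10.1% of genes called higher and 5.9% called lower, and their sum was 889.7 to 1186 CPM in dfr14 BRGCs and 455.3 to 1100 CPM in control BRGCs. Of 4 prothoracic gland markers 3 were called lower (*nvd*, *dib* and *sad*), with sums of 101.5 to 180.8 CPM in dfr14 BRGCs and 219.9 to 265.5 CPM in control BRGCs. The fourth, *phm*, was not called (log2 fold change -0.48, adjusted p = 0.169, limma). The authors attributed reduced *nvd*, *dib* and *sad* RNA in dfr14 BRGCs to the lack of Dfr-L. Whether the amount of gland differed was not tested. Of 4 tracheal markers 1 was called higher (*serp*, log2 fold change 0.58, SE 0.10, adjusted p = 0.0048), with sums of 397.6 to 478.3 CPM in dfr14 BRGCs and 349.4 to 428.7 CPM in control BRGCs. Of 2 salivary gland markers measured 1 was called higher (*sage*, log2 fold change 0.84, SE 0.19, adjusted p = 0.0173), with sums of 5.20 to 8.25 CPM in dfr14 BRGCs and 3.65 to 6.19 CPM in control BRGCs. The other, *Sgs4*, went the other way and was not called (log2 fold change -1.91, SE 0.84, adjusted p = 0.155). None of the 7 fat body markers was called. Their part in the BRGC levels of the peptide genes was not tested.

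The log2 fold change of *AttA* was negative in the BRGC, where it passed the test, and in the body, where it did not, while the other 4 genes measured in both had positive log2 fold changes in the BRGC and negative ones in the body. The difference of these differences (body minus BRGC) was -4.27 (SE 1.91) for *DptA*, -3.90 (SE 1.83) for *DptB*, -2.31 (SE 1.99) for *Mtk*, -1.86 (SE 0.94) for *Drs* and -1.13 (SE 0.98) for *AttA*. None of the 5 passed the interaction test of limma over the 9256 genes in both tables (adjusted p from 0.332 to 0.658), and 1 of the 5, *DptA*, had an unadjusted p under 0.05. In that test 1.29% of all genes were called.

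Genes of the pathways that control these peptides were counted from lists. Over the body table only 0.328% of genes were called lower in dfr14 and 1.09% higher. A count of 0 from a list this short therefore does not show that a pathway was unchanged. In the body, 0 of 16 activating genes of the Imd pathway and 0 of 19 genes of the Toll pathway were called, with median log2 fold changes of 0.23 and 0.33 against 0.12 over all genes. Of 12 Imd inhibitors, 1 was called, *PGRP-SC2*, whose product cleaves peptidoglycan and so dampens Imd signalling. Its levels were 466.1, 393.7, 287.2 and 334.6 CPM in dfr14 bodies, against 83.0, 72.4, 119.4 and 67.8 CPM in control bodies (log2 fold change 2.12, SE 0.22, adjusted p = 0.0065). It was thus higher in every dfr14 library, and the control libraries 3 and 4 were its highest and its lowest. Of 10 other antimicrobial peptide genes none was called in the body. Of 10 genes of Bomanins and related immune-induced peptides, which are mainly Toll targets, 2 fell, *CG15068* (log2 fold change -3.94, SE 0.55, adjusted p = 0.0183) and *CG16836* (-3.69, SE 0.58, adjusted p = 0.0299). *CG15068* had 0.438 to 1.60 CPM in dfr14 bodies, against 10.8, 11.1, 38.1 and 20.8 CPM in control bodies, so the genotypes did not overlap. None of 3 Turandot stress peptide genes was called in the body or the BRGC.

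In the BRGC, some pathway genes rose in dfr14 beside the fall of *AttA*, while most genes of each pathway list were not called. Of 15 activating genes of the Imd pathway, 3 rose and 1 fell, among a table in which 10.1% of genes were called higher and 5.9% lower. The other 11 were not called, and the median log2 fold change of the 15 was 0.12, against -0.02 over all genes. *PGRP-LC*, the membrane receptor of the pathway, had 47.4, 54.5, 61.5 and 60.1 CPM in dfr14 BRGCs, against 22.6, 23.8, 24.7 and 20.2 CPM in control BRGCs (log2 fold change 1.29, SE 0.11, adjusted p = 4.7e-05). *Fadd*, the adaptor that joins Imd to the caspase Dredd, rose by 0.67 (SE 0.11, adjusted p = 0.0034) and *Rel*, encoding Relish, by 0.37 (SE 0.09, adjusted p = 0.0186) on the log2 scale, whereas the kinase gene *Tak1* fell by 0.31 (SE 0.07, adjusted p = 0.0209). Of 9 Imd inhibitors 3 rose. These were *PGRP-LF* (log2 fold change 1.31, adjusted p = 0.0097), a decoy of the receptor, *dnr1* (0.73, adjusted p = 0.0068), which acts against Dredd, and the amidase gene *PGRP-LB* (0.94, adjusted p = 0.0386).

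Of 18 Toll pathway genes in the BRGC 3 rose and none fell, in a table with 10.1% of genes called higher and 5.9% lower. The median log2 fold change of the 18 was 0.05, against -0.02 over all genes. The 3 genes that rose are named here. They were *Dif* (log2 fold change 0.86, adjusted p = 0.0062) and *dl* (0.47, adjusted p = 0.0443), encoding the NF-kappaB factors Dif and Dorsal, and *spz* (0.45, adjusted p = 0.0404), encoding the Toll ligand Spätzle. Of 3 other antimicrobial peptide genes 2 rose, both Cecropins. *CecA2* had 0.836, 1.14, 2.52 and 2.44 CPM in dfr14 BRGCs, against 0.222, 0.379, 0.377 and 0.324 CPM in control BRGCs (log2 fold change 2.03, SE 0.41, adjusted p = 0.0099), without overlap. *CecC* measured 0.571 to 1.19 CPM in dfr14 and 0.042 to 0.486 CPM in control BRGCs (log2 fold change 1.71, SE 0.51, adjusted p = 0.0491). Neither of 2 Bomanin-type genes was called. Of 9 hemocyte markers 3 were called higher in the same dfr14 BRGCs and 2 had negative log2 fold changes. The part of hemocytes in these increases was not tested.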

How the data were processed

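RNA-seq of 16 libraries, 4 for each genotype and tissue, was analysed. Trim Galore, STAR and featureCounts on BDGP6 (versions not given in the sources used here) were used by the authors for trimming, alignment and counting per gene. The authors removed genes without counts and deposited log2 CPM, made with TMM factors in edgeR and a prior count of 2. Fold changes on this scale are understated for genes with few reads. Deposited columns of the authors' own tests and 16 columns that repeat the values above their floor were not used.

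Taking out the prior count gave back whole reads (100% of values within 0.001 of a whole number) which served for reads, CPM and the alternatives. As the deposited unit is log2, genotypes were compared with limma 3.58.1 (R 4.3.3, intensity trend, two-sided, Benjamini-Hochberg, threshold 0.05) in each tissue. The code was tested on simulated data. Tables and figures were made with pandas 2.3.3, numpy 2.4.6 and matplotlib 3.10.9 in Python 3.11.15.

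The genes and lists were chosen with earlier results of these data known. All 10 genes were named, with up to 4 called genes for each pathway list, *vvl*, and the 6 genes most correlated with the set among 11531 with a mean of at least 1 CPM. Counting intervals cover counting error only. Alternatives were other scalings, a filter on low counts, a prior count of 0.5, voom weights, no trend, array weights and leaving out libraries. A planned search of promoters for motifs was not run.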

Additional observations from a re-analysis of the deposited data

How the results depend on the processing

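The *AttA* call in the BRGC held under every scaling, filter, prior count, weighting and left-out library tried. The number of the 5 genes called there was 2 with array weights per library (which added *Drs*) and 1 to 2 with a library left out. In the body the number called stayed 0 under every planned setting and with any library left out, and was 2 without control libraries 1 and 2, a setting added after seeing the data that leaves out the lowest control library of each gene and so widens the difference by construction. Directions turned in the body with array weights for *Mtk* (0.42), *Drs* (0.25), *AttB* (0.94), *AttC* (0.89) and *AttD* (0.35), without control libraries 3 and 4 for *Mtk* (0.78), *Drs* (0.60), *AttB* (1.05), *AttC* (1.06) and *AttD* (0.034), and without control library 3 for *Drs* (0.018, with -1.05 the lowest value when another library was left out). In the BRGC *Mtk* turned to -0.16 without dfr14 library 3 and was at most 2.06 without any other. Over all genes, 177 were called in the body, 62 with voom weights, 1505 with array weights and 72 to 245 with a library left out. In the BRGC 1554 were called, 2476 with array weights and 901 to 1613 with a library left out. With library size alone, 81 body genes were lower and 113 higher (41 and 136 with TMM), 988 BRGC genes were lower and 782 higher (574 and 980 with TMM), and the median over all body genes moved to -0.12, against 0.12 with TMM, while 10 of 10 peptide genes stayed negative in the body. No gene was called in the interaction under any setting (0 of 5). The median SD among control body libraries was 2.27 to 2.74, and the range of the mean log2 level over them 4.05 to 4.77, with a library left out, which was added after seeing the data. No paired analysis was possible because the columns carry no replicate numbers. Counting error at 2 to 33 reads limits the BRGC values.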

Other observations

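The Bomanin-type genes, which are mainly Toll targets, did not follow control body libraries 3 and 4 alike, in values chosen after they were seen. Control libraries 3 and 4 were the highest pair for 6 of the 10 Bomanin-type genes and libraries 1 and 3 for the other 4. *IM1* had 1.69, 0.633, 0.874 and 0.171 CPM in dfr14 body libraries 1 to 4, against 0.437, 0.115, 115.9 and 0.367 CPM in control body libraries 1 to 4. *IM2* had 2.17, 0.877, 1.38 and 0.341 CPM in dfr14 bodies, against 0.632, 0.077, 216.8 and 3.16 CPM in control bodies. Control library 3 was thus far above every other body library for both genes, while control library 4 was within or just above the dfr14 range, although the Diptericin genes were at least as high in control library 4. *IM3* had 0.341 to 1.15 CPM in dfr14 bodies, against 9.47, 8.24, 249.6 and 17.4 CPM in control bodies, and so stood above dfr14 in every control library (adjusted p = 0.104, limma).

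The Cecropin gene *CecA1* followed neither pair of control libraries. It had 0.135, 0.195, 0.910 and 12.9 CPM in dfr14 bodies, against 0.632, 4.20, 1.15 and 11.7 CPM in control bodies, with library 4 the highest of each genotype. *Drsl5*, a relative of *Drs*, had 0.135, 0.097, 1.89 and 42.3 CPM in dfr14 bodies, against 240.0, 237.7, 0.088 and 446.8 CPM in control bodies. Control library 3, the highest for *Drs*, was therefore the lowest for *Drsl5*.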
